A study of Saccharomyces cerevisiae with 4 samples.

Results

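The response of budding yeast to zinc limitation (E4) was compared, gene by gene, with the response to a constitutively active form of the zinc regulator Zap1 (E3). The value described is the log2 Cy5/Cy3 ratio averaged over the 2 E4 arrays minus the same average over the 2 E3 arrays, so that a positive difference is a higher ratio in E4. All 4992 genes read on the 4 arrays were used, of 6063 genes read on any array. In E4, cells grew in LZM, a zinc-limiting medium buffered with 1 mM EDTA and 20 mM citrate. The zinc-limited culture had 3 µM ZnCl2 and the replete culture had 3 mM ZnCl2, and both grew for 14 to 16 h to an OD600 of about 0.7. In E3, cells grew for 20 to 24 h, to an OD600 of about 0.8. Their medium was SD with 2% galactose and 1 µM added ZnCl2, which is zinc-replete because SD lacks strong zinc chelators. One culture carried Zap1TC on the plasmid pYef2 and the other carried the empty vector. All cultures were of DY1457, used as wild type, which is haploid, has the mating type alpha and carries the markers ade6, can1, his3, leu2, trp1 and ura3. Each experiment had 2 biological replicates from independent pairs of cultures, and each pair was hybridized to 1 spotted 2-colour array. The zinc-limited or Zap1TC culture was labelled with Cy5, and the replete or vector culture with Cy3, on every array.

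Zap1 is the transcriptional activator that yeast cells use when zinc runs short. It binds zinc-responsive elements in its target promoters, and zinc bound to its activation domains holds it inactive in replete cells. Its best known targets encode zinc transporters of the plasma membrane and the vacuole. In Zap1TC, mutations in or near the activation domains make the protein much less responsive to zinc, and here it was made in excess from the galactose-inducible GAL1 promoter. Zinc is also a cofactor of many enzymes and of the RNA polymerases.

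The media differed between the experiments as well as the treatment. GAL1 and GAL2, which galactose induces, were well above background in both channels on both E3 arrays. On the E4 arrays neither gene was well above background in Cy5, and each was so in Cy3 on 1 of 2 arrays. The carbon source of LZM is not given in the sources used here. Medium, growth time and plasmid go with the experiment and cannot be told apart from zinc limitation against active Zap1. Of the mating type markers, the 4 alpha-specific genes (MF(ALPHA)1, MF(ALPHA)2, STE3 and SAG1) were well above background in both channels on all 4 arrays. Of the 6 a-specific genes, only STE6 was read on all 4 arrays, and it was not well above background in Cy3 on either E4 array. The gene-specific part of a dye effect that is the same on the log scale in both experiments drops out of the difference, because the dyes had the same orientation, but it stays in each experiment's own ratio.

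The responses of the 2 experiments overlapped only in part. A gene is said to have changed where the limma test gave an adjusted p under 0.05 and the change was at least 1.5-fold, and rose or fell in what follows means that this call was made. In E4, 245 genes rose (4.91% of those tested) and 102 fell (2.04%). In E3, 326 genes rose (6.53%) and 330 fell (6.61%). Both experiments raised 82 genes, which is 33.5% of the E4 rises and 25.2% of the E3 rises. Both lowered 25 genes, which is 24.5% of the E4 falls and 7.58% of the E3 falls. Across genes, which are not independent replicates, the E4 and E3 means correlated with r = 0.456 (Spearman's rho = 0.272), against 0.941 between the E4 arrays and 0.945 between the E3 arrays.

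The difference itself passed the test for 849 genes. It was higher in E4 for 513 genes (10.3% of those tested) and lower in E4 for 336 genes (6.73%). These 2 shares are the base for the list counts below. In all 849 the arrays of the 2 experiments did not overlap, which a call makes likely with 2 arrays each, so it adds no support. Without the fold minimum, 1324 genes were higher and 1080 lower at the adjusted p alone. The normexp background correction adds 50 units to each signal, and when the local background was simply subtracted instead, 951 genes were higher and 636 lower. The median difference over all genes was 0.023. Of the genes with a called difference, 54 were not well above background in a channel on both arrays of an experiment, so their ratio there is only a bound, and none of these is named below with a value unless this is said. Of the genes named below, 7 were below this level in a channel on 1 of the 2 E4 arrays only, namely CTR3, FRE5, RRP7, THI11 and YHR213W in Cy5 and FIT2 and TIS11 in Cy3. Genes that rose or fell in E4 and lay within 1.2-fold of no change in E3 numbered 81 and 31. The opposite case, a rise or fall in E3 with less than a 1.2-fold change in E4, held for 108 and 146 genes. Just 10 genes changed in both experiments and in opposite directions.

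**Figure D1:**
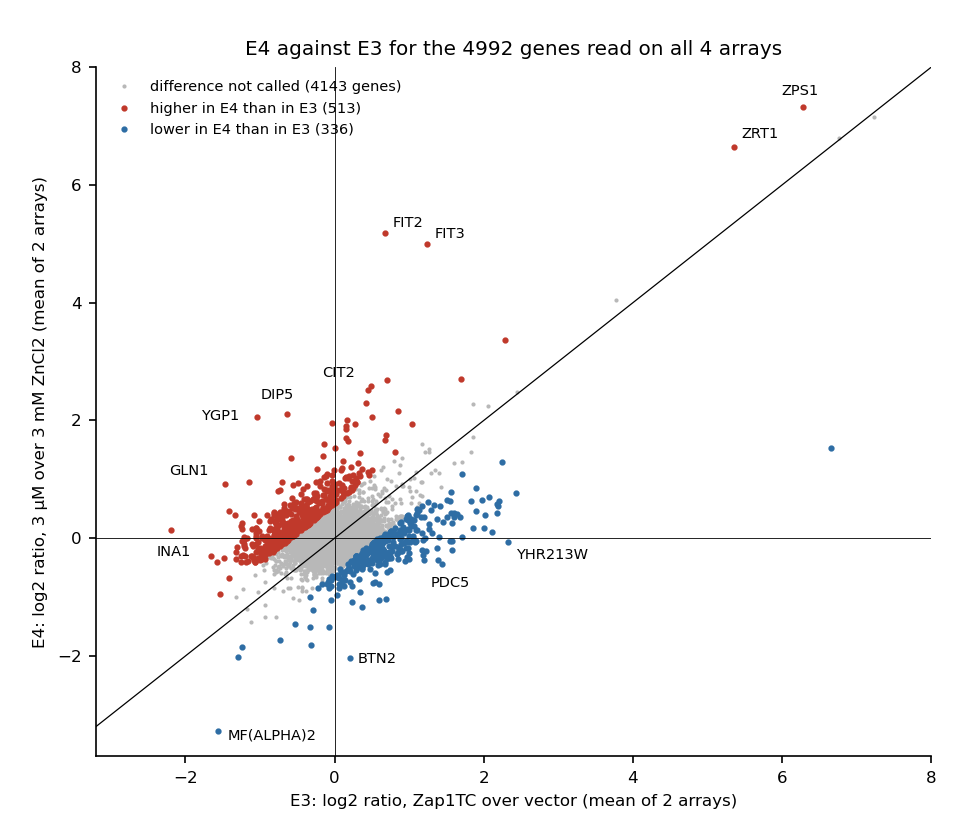
Each point is 1 of the 4992 genes, with its mean log2 ratio in E4 (3 µM over 3 mM ZnCl2) on the vertical axis and in E3 (Zap1TC over vector) on the horizontal axis. The line marks equal ratios. Red points are the 513 genes called higher in E4 and blue points the 336 called lower. The isolated blue point at the far right is ZAP1, whose E4 ratio is only a bound.

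The largest single-gene differences in favour of zinc limitation, those of FIT2 and FIT3, were in the iron regulon. Both E4 cultures held EDTA and citrate, and the paper states that strong chelators can also bind metals other than zinc. Whether the availability of iron and copper differed between the E4 cultures was not tested. Yeast takes up iron by reducing it at the cell surface and passing it through an oxidase and permease pair, or as siderophore complexes through a family of dedicated transporters, and the activator Aft1 induces these genes when iron is scarce. The iron list holds mainly genes of iron uptake and siderophore transport, with some of other roles, such as TIS11 and ISU2. Of its 26 genes read on all arrays, 18 were higher in E4 than in E3 and 1 was lower, where 10.3% and 6.73% of all genes were. The median log2 ratio of the list was 0.98 in E4 and 0.21 in E3. In E4 alone 19 of the 26 rose and 1 fell, where 4.91% and 2.04% of all genes did. In E3 alone 5 rose, against 6.53% of all genes. The number higher in E4 than in E3 was 13 with no background correction and in the deposited values, and 21 with plain subtraction.

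FIT2 and FIT3, neighbouring genes for cell wall mannoproteins that hold siderophore iron, headed all genes. FIT2 had log2 ratios of 5.22 and 5.15 on the E4 arrays and 1.02 and 0.33 on the E3 arrays. Its difference was 4.51 (95% CI 4.11 to 4.92, adjusted p = 6.41e-07), a factor of 22.8, although on 1 E4 array its Cy3 signal was not well above background. It ranged from 3.69 with no background correction to 6.43 with plain subtraction. FIT3 had ratios of 5.09 and 4.90 on the E4 arrays and 1.41 and 1.07 on the E3 arrays, with a difference of 3.75 (95% CI 3.48 to 4.02, adjusted p = 1.86e-07). Both genes also rose in E3, so the experiments shared the direction and differed in its size.

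FRE1, the major surface reductase for iron and copper, had ratios of 1.85 and 2.06 on the E4 arrays and −0.0055 and −0.076 on the E3 arrays, with a difference of 1.99 (95% CI 1.77 to 2.21, adjusted p = 1.81e-06). FET3, the multicopper oxidase of high-affinity iron uptake, had 2.0 and 2.01 on the E4 arrays and 0.29 and 0.034 on the E3 arrays, with a difference of 1.84 (95% CI 1.61 to 2.07, adjusted p = 2.88e-06). Its partner FTR1, the permease, had 1.67 and 1.63 on the E4 arrays and 0.19 and 0.16 on the E3 arrays, with a difference of 1.48 (95% CI 1.29 to 1.66, adjusted p = 2.95e-06). All 3 genes rose in E4 and lay within 1.2-fold of no change in E3. The siderophore transporters SIT1, ARN2 and ENB1 differed by 1.74, 2.08 and 0.80, and the siderophore reductases FRE3 and FRE4 by 1.71 and 1.88. Of these, ARN2 and FRE4 lay outside 1.2-fold in E3, averaging 2.52 in E4 and 0.45 in E3 for ARN2 and 2.30 in E4 and 0.42 in E3 for FRE4, without being called there. CCC2, which loads copper into Fet3 in the secretory pathway, differed by 1.05, and HMX1, the heme oxygenase that releases iron from heme, by 0.72. ENB1 fell under the fold minimum with no background correction (0.55) and in the deposited values (0.54), and HMX1 did so without Zap1TC replicate 2 (0.52) and without LZM3 replicate 2 (0.57). Every E4 array lay above every E3 array for each of these genes.

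TIS11, also called CTH2, behaved otherwise. It encodes a protein that binds and destabilizes mRNAs of iron-using proteins, and the study lists it among Zap1 targets. Its ratios were 3.22 and 3.52 on the E4 arrays and 2.61 and 1.96 on the E3 arrays, so that it rose in both experiments, with a difference of 1.08 (95% CI 0.67 to 1.5, adjusted p = 0.00113). That difference was 0.45 with no background correction and 0.45 in the deposited values, under the fold minimum in both, and 1.71 with the arrays scaled to the same spread. At the other end of the list, FRE5, a putative mitochondrial reductase, had ratios of −0.16 and −0.32 on the E4 arrays and 0.95 and 0.75 on the E3 arrays and was the 1 gene lower in E4, by −1.09 (adjusted p = 4.23e-05). SMF3, the vacuolar iron exporter, averaged 0.45 in E4 and 0.64 in E3, and its difference of −0.19 did not pass (adjusted p = 0.084). The 1 listed gene that fell in E4 was ISU2, averaging −0.63 in E4 and −0.26 in E3, and its difference of −0.37 was under the fold minimum. Outside this list, GRX4, a glutaredoxin that helps to hold Aft1 inactive, fell in E4 and not in E3. The GRX4 ratios were −0.91 and −1.19 on the E4 arrays and 0.0016 and −0.10 on the E3 arrays, with a difference of −1.0 (95% CI −1.24 to −0.76, adjusted p = 9.24e-05).

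Of the copper genes, CTR1, the high-affinity copper transporter, had ratios of 1.67 and 1.54 on the E4 arrays and −0.078 and −0.19 on the E3 arrays, with a difference of 1.74 (95% CI 1.53 to 1.95, adjusted p = 2.46e-06). CTR2, which exports copper from the vacuole, differed by 0.77 (adjusted p = 9.90e-05), and CCS1, the copper chaperone of superoxide dismutase, by 0.78 (adjusted p = 0.000193). These were the 3 genes of 10 listed for copper that were higher in E4, against 10.3% of all genes. None was lower by the call, and the other copper transporter, CTR3, averaged −0.36 in E4 and 0.17 in E3 (difference −0.54, adjusted p = 0.00117, under the fold minimum). The copies of CUP1, the metallothionein that binds excess copper, averaged −0.14 in E4 and −0.32 in E3 for CUP1-1 and did not pass.

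**Figure D2:**
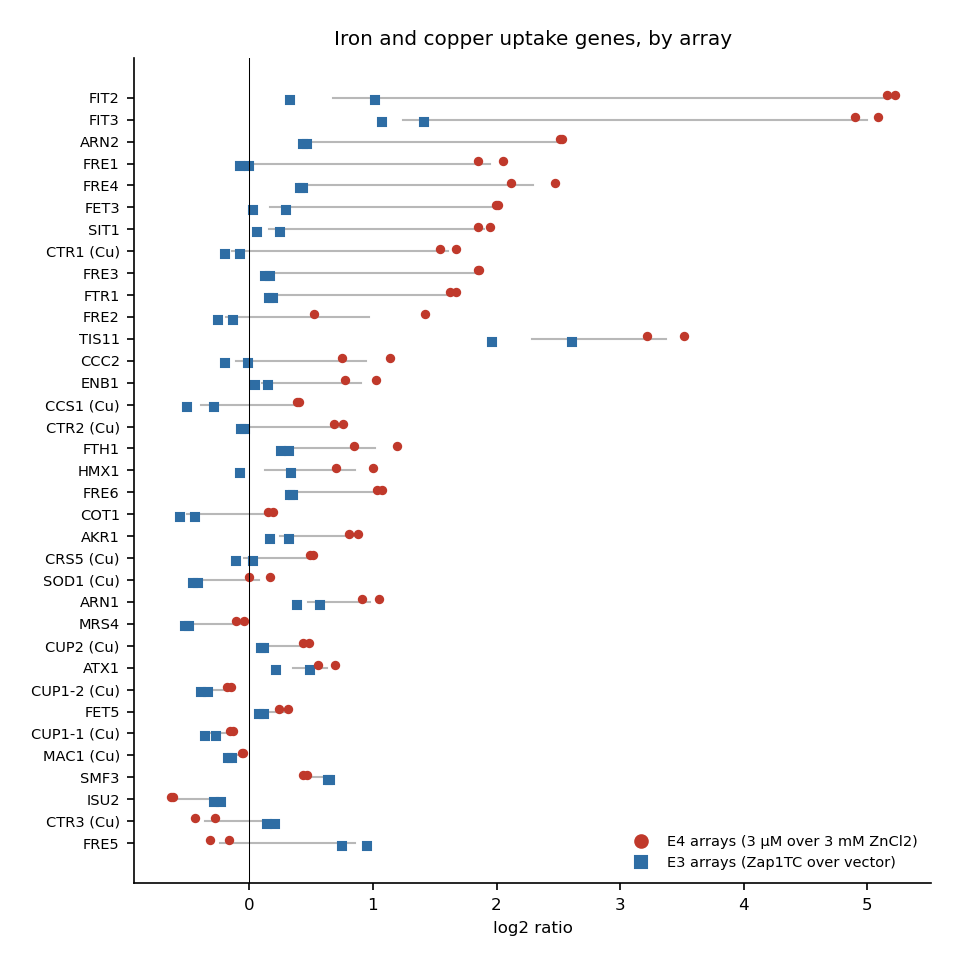
The log2 ratio on each array is shown for the iron genes and, marked Cu, the copper genes that were above background in each experiment, ordered by their difference. Red circles are the 2 E4 arrays and blue squares the 2 E3 arrays, and grey lines join the means. From FIT2 to AKR1 the circles lie right of the squares, and only at SMF3, ISU2, CTR3 and FRE5 do they lie left of them.

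Some nutrient permeases and nitrogen genes were higher under zinc limitation, where 10.3% of all genes were higher and 6.73% lower. Of 23 listed permeases for amino acids, peptides and polyamines, 8 were higher in E4 and 3 lower, and the median ratio was 0.59 in E4 and 0.094 in E3. Of 29 genes under nitrogen catabolite repression, the system that shuts off the use of poor nitrogen sources while good ones last, 13 were higher and 1 lower. Their median was 0.51 in E4 and 0.058 in E3. DIP5, a permease for glutamate and aspartate, had ratios of 1.93 and 2.29 on the E4 arrays and −0.54 and −0.73 on the E3 arrays, with a difference of 2.75 (95% CI 2.47 to 3.03, adjusted p = 1.51e-06). GLN1, the glutamine synthetase that fixes ammonium, had 1.07 and 0.78 on the E4 arrays and −1.33 and −1.61 on the E3 arrays, with a difference of 2.40 (95% CI 2.12 to 2.68, adjusted p = 2.45e-06). Both genes rose in E4 and fell in E3.

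Other members of these lists were higher in E4 without falling in E3. GAP1, the general amino acid permease, rose in both experiments, averaging 1.93 in E4 and 1.04 in E3, with a difference of 0.89 (adjusted p = 0.000207) that was 0.45 with no background correction and 0.46 in the deposited values, and then not called. AGP1, a broad-range permease induced by external amino acids, averaged 0.80 in E4 and −0.00095 in E3, with a difference of 0.80 (adjusted p = 7.31e-05). MEP2, the high-affinity ammonium permease and sensor, differed by 0.97 (adjusted p = 4.52e-05), and GDH1, the glutamate dehydrogenase of ammonium assimilation, by 0.76 (adjusted p = 0.000488). The polyamine exporters TPO2 and TPO3 differed by 1.55 and 1.09. Their relative TPO4 went the opposite way, as described below. ALP1, an arginine permease, rose only in E3, with ratios of 0.085 and 0.26 on the E4 arrays and 1.96 and 1.75 on the E3 arrays and a difference of −1.68 (95% CI −1.91 to −1.45, adjusted p = 5.43e-06). PTR2, the peptide transporter, rose in both but less in E4, with a difference of −0.87 (adjusted p = 0.000111). CAR2, the ornithine transaminase of arginine breakdown, was the 1 nitrogen gene lower in E4, averaging 0.36 in E4 and 1.6 in E3.

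Amino acid synthesis genes differed in both directions, where 10.3% of all genes were higher in E4 and 6.73% lower. Of 9 arginine genes 5 were higher in E4 and none lower, of 6 lysine genes 4 were higher and none lower, and the list medians differed by 0.64 and 0.76. Of 12 genes of leucine, valine and isoleucine synthesis 2 were higher and 3 lower, with a median difference of −0.080, and of 12 aromatic amino acid genes 4 were higher and 1 lower. Of 6 histidine genes 2 were higher and none lower. ARG4, the argininosuccinate lyase, had ratios of 0.96 and 0.95 on the E4 arrays and −0.33 and −0.17 on the E3 arrays, with a difference of 1.20 (95% CI 1.0 to 1.4, adjusted p = 1.55e-05). LYS20 and LYS21, the homocitrate synthases that begin lysine synthesis, fell in E3 and stayed within 1.2-fold in E4, averaging −0.14 in E4 and −0.92 in E3 for LYS20 and −0.0053 in E4 and −0.79 in E3 for LYS21. They are near-identical paralogs, and their spots may share signal. Fatty acid genes differed as well, 5 of 12 being higher in E4 and none lower. OLE1, the fatty acid desaturase, averaged 1.04 in E4 and 0.15 in E3, with a difference of 0.89 (adjusted p = 0.000203), and FAA1, an acyl-CoA synthetase, averaged 0.97 in E4 and −0.029 in E3, with a difference of 1.0 (adjusted p = 2.53e-05).

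In 10 genes the experiments pulled in opposite directions. Rises in E4 with falls in E3 were found for 7 genes, namely YGP1, DIP5, GLN1, FCY2, CLB1, YHR033W and BAP3. YGP1, a secreted glycoprotein that accumulates on nutrient limitation, was the clearest of them, with ratios of 2.07 and 2.05 on the E4 arrays and −1.01 and −1.08 on the E3 arrays and a difference of 3.10 (95% CI 2.91 to 3.29, adjusted p = 5.10e-08). FCY2, the permease for purines and cytosine, had 1.07 and 0.83 on the E4 arrays and −1.31 and −0.98 on the E3 arrays, with a difference of 2.10 (95% CI 1.81 to 2.38, adjusted p = 4.57e-06). BAP3, a permease for branched-chain amino acids, had 0.85 and 0.79 on the E4 arrays and −0.87 and −0.58 on the E3 arrays, with a difference of 1.55 (95% CI 1.30 to 1.79, adjusted p = 1.01e-05). Thus 3 of the 7 are permeases, but the share of permeases among all genes was not counted. CLB1, a B-type cyclin of mitosis, had 0.87 and 1.04 on the E4 arrays and −0.80 and −0.62 on the E3 arrays, with a difference of 1.66 (95% CI 1.43 to 1.89, adjusted p = 4.93e-06). The uncharacterized YHR033W had 0.90 and 0.70 on the E4 arrays and −0.85 and −0.68 on the E3 arrays, with a difference of 1.56 (95% CI 1.34 to 1.79, adjusted p = 6.83e-06).

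Falls in E4 with rises in E3 were found for TPO4, CYS3 and NRD1. TPO4, a polyamine exporter of the plasma membrane, had ratios of −0.75 and −1.31 on the E4 arrays and 0.76 and 0.62 on the E3 arrays, with a difference of −1.72 (95% CI −2.07 to −1.37, adjusted p = 3.70e-05). CYS3, the cystathionine gamma-lyase that makes cysteine, had −0.90 and −0.67 on the E4 arrays and 0.49 and 0.70 on the E3 arrays, with a difference of −1.38 (95% CI −1.63 to −1.14, adjusted p = 1.82e-05). NRD1, an RNA-binding protein that ends the transcription of small non-coding RNAs, had −0.99 and −1.13 on the E4 arrays and 0.65 and 0.53 on the E3 arrays, with a difference of −1.65 (95% CI −1.86 to −1.44, adjusted p = 2.95e-06). The E3 rises of CYS3 and NRD1 lie just above the 1.5-fold minimum (0.585 on the log2 scale), and the 2 E4 arrays of TPO4 stand farther apart than those of the other 9 genes. All 10 genes kept opposite signs in the 2 experiments under every setting tried. Some calls are close to the fold minimum, and 5 genes lost one under some setting. DIP5 and CYS3 lost theirs in E3 without Zap1TC replicate 2 (E3 means −0.54 and 0.49), and BAP3 and NRD1 without Zap1TC replicate 1 (−0.58 and 0.53). DIP5 and CYS3 also lost it with the arrays scaled to the same spread, CYS3 with no background correction and in the deposited values, and NRD1 in these 3 settings and with print-tip loess. YHR033W lost its E4 call in the deposited values. The counts of opposite genes, not all of them the same genes, were 30 and 32 with plain subtraction and 7 and 1 in the deposited values.

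**Figure D3:**
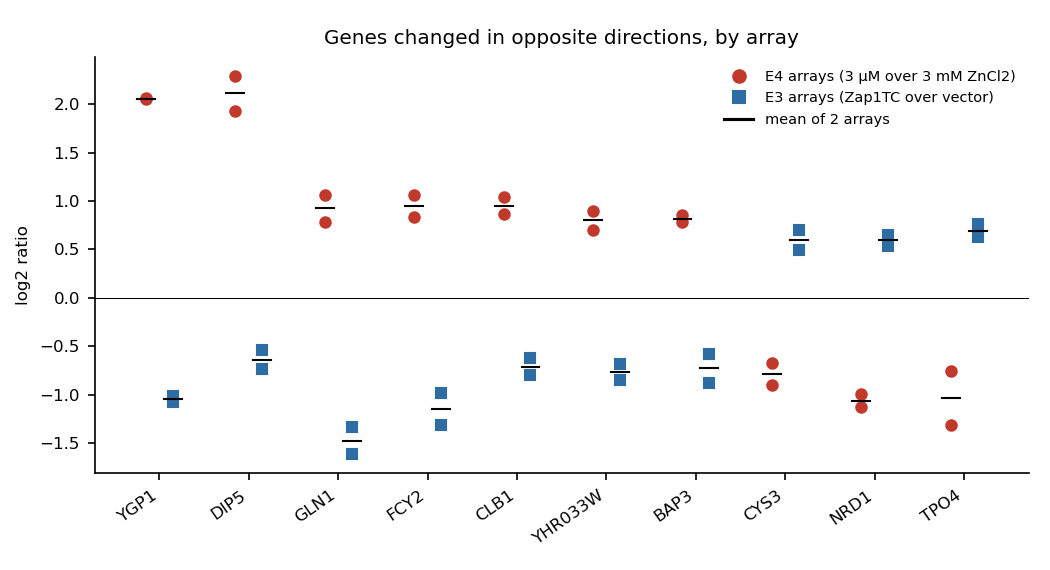
The log2 ratio on each array is shown for the 10 genes that changed in opposite directions, with red circles for the 2 E4 arrays, blue squares for the 2 E3 arrays and a bar at each mean. For every gene both circles lie on one side of 0 and both squares on the other.

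Most ribosomal protein genes fell with Zap1TC and hardly moved with zinc limitation. Of 127 genes for cytosolic ribosomal proteins, 78 were higher in E4 than in E3 and none was lower, against 10.3% and 6.73% of all genes. By subunit, 36 of 53 small and 42 of 74 large subunit genes were higher. These counts were 22 and 36 with print-tip loess, and 25 and 37 with the arrays scaled to the same spread. In E4 no ribosomal protein gene rose and 1 fell, where 4.91% and 2.04% of all genes did. In E3, by contrast, 96 fell and none rose, against 6.61% and 6.53% of all genes. On the separate arrays their median log2 ratio was −0.096 and −0.075 in E4 and −0.68 and −0.86 in E3. The median difference was 0.67, and 121 of the 127 differences were above 0. The medians were alike for the small subunit (−0.11 in E4 and −0.76 in E3, 53 genes) and the large subunit (−0.088 in E4 and −0.78 in E3, 74 genes). Most of these proteins are encoded by near-identical gene pairs, which spotted probes may not tell apart, so the genes are not separate measurements.

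RPL2B, of the large subunit, had the largest difference among the ribosomal protein genes, with ratios of 0.42 and 0.17 on the E4 arrays and −1.02 and −0.99 on the E3 arrays and a difference of 1.30 (95% CI 1.07 to 1.53, adjusted p = 1.76e-05). RPS0A, of the small subunit, had −0.094 and −0.11 on the E4 arrays and −1.14 and −1.28 on the E3 arrays, with a difference of 1.11 (95% CI 0.91 to 1.31, adjusted p = 1.88e-05). The exceptions included RPS15, the 1 gene that fell in E4, which also fell in E3 and had ratios of −0.97 and −0.71 on the E4 arrays and −0.80 and −0.82 on the E3 arrays. RPP0 and RPP1B, of the acidic stalk, had differences of −0.32 and −0.12 that were not called.

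Lists of genes that build ribosomes and feed translation had median differences of the same sign. Over all genes, 10.3% were higher in E4 and 6.73% lower. Of 117 ribosome biogenesis genes 38 were higher in E4 and 1 was lower, with a median of 0.049 in E4 and −0.37 in E3. RNA polymerases I and III, which make ribosomal and transfer RNA and themselves contain zinc, had 7 of 23 genes higher and none lower. Translation factors had 11 of 33 higher and none lower, and transfer RNA synthetases 5 of 19 higher and none lower. NSR1, a nucleolin-like protein of early ribosome assembly, had the largest difference, with ratios of 0.50 and 0.30 on the E4 arrays and −1.5 and −1.17 on the E3 arrays and a difference of 1.73 (95% CI 1.46 to 2.01, adjusted p = 1.01e-05). UTP15, of the complex that starts processing of the small subunit RNA, had −0.087 and −0.0098 on the E4 arrays and −1.34 and −1.13 on the E3 arrays, with a difference of 1.19 (95% CI 0.97 to 1.41, adjusted p = 2.21e-05). MES1, the methionyl-tRNA synthetase, averaged 0.021 in E4 and −0.93 in E3, with a difference of 0.95 (adjusted p = 5.30e-05). RRP7, a small subunit assembly factor, was the 1 biogenesis gene lower in E4, by −0.64 (adjusted p = 0.000309), and was under the fold minimum with median centring (−0.58).

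The shift was not found in the protein-synthesis genes of mitochondria. Of 65 genes for mitochondrial ribosomal proteins 1 was higher and none lower, and their median differed by 0.044. The 34 proteasome genes had a median difference of 0.044, with none higher and 1 lower.

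All 10 histone genes had a difference above 0. Of them, 9 were called higher in E4 and none lower, against 10.3% and 6.73% of all genes. The number called higher was 6 with the arrays scaled to the same spread, and 7 with no background correction and with print-tip loess. The median ratio was 0.24 in E4 and −0.62 in E3. In E3 7 histone genes fell and in E4 1 rose, where 6.61% and 4.91% of all genes did. HTA1, for histone H2A, was the gene that rose in E4, with ratios of 0.83 and 0.59 on the E4 arrays and −0.0062 and −0.51 on the E3 arrays and a difference of 0.97 (95% CI 0.62 to 1.32, adjusted p = 0.000769). HHT1, for histone H3, had 0.56 and 0.33 on the E4 arrays and −0.66 and −0.56 on the E3 arrays, with a difference of 1.06 (95% CI 0.83 to 1.28, adjusted p = 4.80e-05). HHF1, for histone H4, had a difference of 0.56 and missed the fold minimum. In bulk RNA, fewer cells in S phase and less histone mRNA per cell cannot be told apart. The copies of each histone are near-identical in sequence, so the 10 genes hold fewer separate signals. Of 34 genes of the G1/S transition and DNA replication, 1 was higher and none lower, with a median difference of 0.18.

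**Figure D4:**
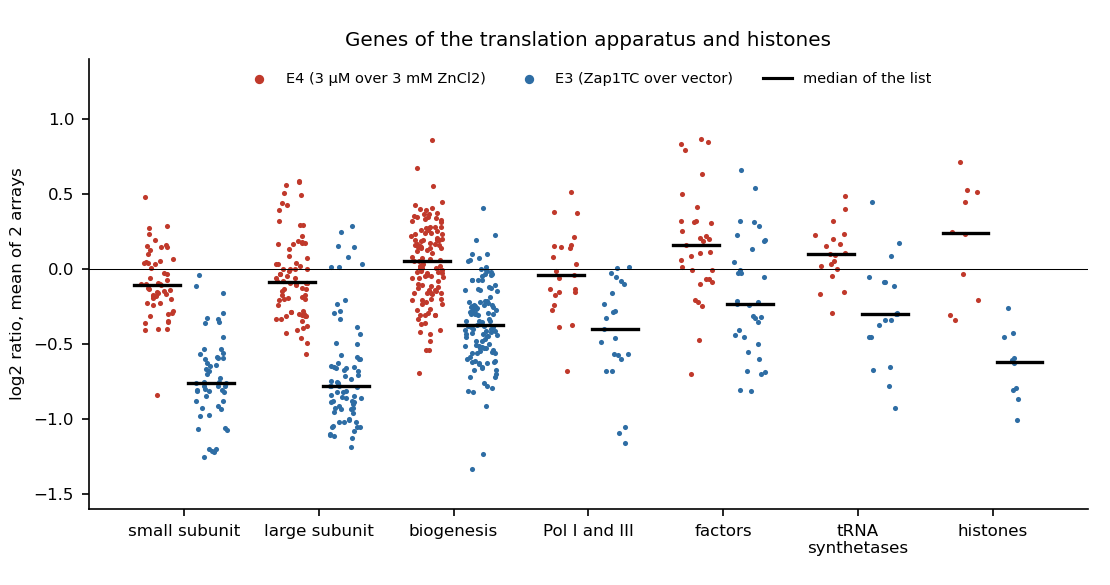
Each point is a gene's mean log2 ratio over 2 arrays, in red for E4 (left of each pair) and in blue for E3 (right), and bars are list medians. The E4 medians lie between −0.11 (small subunit) and 0.24 (histones), and the E3 medians between −0.78 (large subunit) and −0.24 (translation factors).

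Of 30 cytosolic and mitochondrial chaperone genes, 11 were lower under zinc limitation than with Zap1TC, where 6.73% of all genes were, 3 were higher and 16 were not called. The median ratio was −0.21 in E4 and 0.049 in E3. In E4 alone 6 chaperone genes fell and 1 rose, where 2.04% and 4.91% of all genes did. In E3 alone 4 rose and none fell, against 6.53% and 6.61% of all genes. BTN2, a heat-inducible protein that gathers misfolded proteins, had ratios of −1.91 and −2.15 on the E4 arrays and 0.20 and 0.21 on the E3 arrays, with a difference of −2.23 (95% CI −2.46 to −2.01, adjusted p = 1.39e-06). It had the largest fall of the list in E4 and did not change in E3.

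STI1, which links Hsp70 to Hsp90, had ratios of −0.51 and −0.64 on the E4 arrays and 0.73 and 0.67 on the E3 arrays, with a difference of −1.28 (95% CI −1.48 to −1.08, adjusted p = 1.01e-05). HSP82, the heat-inducible Hsp90, averaged −0.53 in E4 and 0.28 in E3, with a difference of −0.81 (adjusted p = 0.000115). CPR6 and AHA1, co-chaperones of Hsp90, differed by −0.94 (adjusted p = 3.09e-05) and −0.66 (adjusted p = 0.000334), and both fell in E4. The AHA1 difference missed the fold minimum with no background correction (−0.52), in the deposited values (−0.48) and without Zap1TC replicate 1 (−0.58). MDJ1, a mitochondrial Hsp40, averaged −0.79 in E4 and 0.060 in E3, with a difference of −0.85 (adjusted p = 8.02e-05). The chaperones higher in E4 were HSP78 (0.84), a mitochondrial disaggregase, and the near-identical SSB1 (0.64) and SSB2 (0.79), Hsp70 proteins that bind nascent chains at the ribosome. SSB1 was not called with no background correction (0.58), in the deposited values (0.58), without Zap1TC replicate 1 (0.56) or without LZM3 replicate 1 (0.56), nor SSB2 with loess within print-tip blocks (0.44). HSP104, the cytosolic disaggregase, averaged −0.23 in E4 and −0.16 in E3, a difference that did not pass (adjusted p = 0.563).

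General stress genes showed no common direction over the whole list, but this depended on dim genes. Of 44 such genes, 11 were higher and 6 lower in E4, against 10.3% and 6.73% of all genes, and their median difference was 0.021. Leaving out genes not well above background in both channels on all 4 arrays kept 29, with 10 higher and 2 lower. Their median difference was then 0.22, against 0.054 over all genes. Besides YGP1, the members with the largest differences included HOR7, a gene induced by osmotic stress, with ratios of 0.41 and 0.52 on the E4 arrays and −1.53 and −1.31 on the E3 arrays and a difference of 1.89 (95% CI 1.66 to 2.11, adjusted p = 2.46e-06). Of the members above background in each experiment, HSP30, a stress-induced membrane protein, had the lowest difference, averaging −0.22 in E4 and 0.90 in E3, with a difference of −1.13 (adjusted p = 1.76e-05). YRO2, a membrane protein related to HSP30, went the other way from it, with ratios of 1.32 and 1.4 on the E4 arrays and −0.68 and −0.48 on the E3 arrays and a difference of 1.95 (95% CI 1.73 to 2.16, adjusted p = 1.81e-06).

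The largest rises that were found in E3 and not in E4 included adhesins of the cell surface. YHR213W, which resembles part of a flocculin, had ratios of −0.12 and −0.0043 on the E4 arrays and 2.38 and 2.27 on the E3 arrays, with a difference of −2.39 (95% CI −2.59 to −2.19, adjusted p = 5.53e-07). The flocculin FLO5, an adhesin of cell clumping, had 0.057 and 0.15 on the E4 arrays and 2.22 and 2.0 on the E3 arrays, with a difference of −2.0 (95% CI −2.23 to −1.78, adjusted p = 1.81e-06). Both genes have locus names of the right arm of chromosome VIII and belong to a family of similar sequences, so their signals may be shared. Of 38 wall mannoproteins 9 were higher in E4, among them FIT2, FIT3 and YGP1, and 11 were lower. Over all genes, 10.3% were higher and 6.73% lower. HSP150 and PIR3, covalently bound wall proteins, averaged 0.25 in E4 and 1.57 in E3 for HSP150 and 0.64 in E4 and 2.20 in E3 for PIR3, and the HSP150 difference of −1.32 was −0.64 in the deposited values. UTH1, of the SUN family of wall proteins, rose in both, with ratios of 0.63 and 0.54 on the E4 arrays and 2.13 and 2.22 on the E3 arrays and a difference of −1.59 (95% CI −1.79 to −1.4, adjusted p = 2.72e-06).

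Glycolytic genes differed in both directions, where 10.3% of all genes were higher in E4 and 6.73% lower. Of 18 glycolytic genes 3 were higher in E4 (HXK1, HXK2 and FBA1) and 6 were lower (TDH3, TDH2, CDC19, ENO2, ENO1 and PDC5). The 3 encode early enzymes, namely both hexokinases and the zinc-dependent aldolase, and the 6 encode enzymes after the aldolase. FBA1 averaged 0.28 in E4 and −0.52 in E3, with a difference of 0.81 (adjusted p = 0.000149). ENO1, an enolase, had ratios of 0.85 and 0.55 on the E4 arrays and 2.0 and 2.13 on the E3 arrays, with a difference of −1.36 (95% CI −1.61 to −1.11, adjusted p = 2.18e-05), and shares nearly all of its sequence with ENO2. With loess within print-tip blocks the ENO1 and ENO2 differences were −2.33 and −2.14. TDH3 and TDH2, near-identical glyceraldehyde-3-phosphate dehydrogenases, averaged 0.26 in E4 and 1.02 in E3 for TDH3 and 0.11 in E4 and 0.92 in E3 for TDH2, with differences of −0.76 (adjusted p = 0.00032) and −0.81 (adjusted p = 0.000106). In the deposited values these differences were 0.0029 and 0.076, so neither was lower there, and 4 glycolytic genes were higher and 4 lower. Of the higher ones, HXK2 was not called with loess within print-tip blocks (0.40) or without LZM3 replicate 1 (0.52). CDC19, the pyruvate kinase, averaged 0.20 in E4 and 1.07 in E3, with a difference of −0.87 (adjusted p = 0.000175). PDC5, the pyruvate decarboxylase that is used when PDC1 is lacking or thiamine is scarce, had ratios of −0.36 and −0.39 on the E4 arrays and 1.28 and 1.49 on the E3 arrays, with a difference of −1.76 (95% CI −1.98 to −1.54, adjusted p = 2.72e-06). PDC1, read on both E4 arrays and on 1 E3 array, had similar ratios of −0.34 and −0.33 in E4 and 1.57 in E3. Whether the spots of PDC1 and PDC5 share signal was not tested.

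Of 11 genes for hexose transporters and sensors, 4 were higher in E4 and 2 lower, where 10.3% and 6.73% of all genes were. Their median difference was 0.027, against 0.023 over all genes. HXT3, HXT4, HXT6 and HXT7, which take up glucose, rose in E4 and stayed within 1.2-fold in E3, averaging 1.05 in E4 and −0.12 in E3 for HXT3 and 1.18 in E4 and −0.24 in E3 for HXT4. HXT6 and HXT7 are near-identical and differed by 0.93 and 0.91. HXT5, a transporter of slow-growing cells, rose in E3 and not in E4, with a difference of −0.82 (adjusted p = 8.95e-05). HXT2 was also called lower in E4, with a difference of −0.73. These transporters respond to the carbon source, which was galactose in E3 and is not known here for E4, and its part in these values was not tested.

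CIT2, the peroxisomal citrate synthase induced when mitochondrial signals fail, had ratios of 2.57 and 2.6 on the E4 arrays and 0.68 and 0.29 on the E3 arrays and a difference of 2.10 (95% CI 1.83 to 2.37, adjusted p = 3.58e-06). Of the 18 genes of the tricarboxylic acid cycle and its citrate synthases, 6 were higher in E4 and 1 lower. Over all genes, 10.3% were higher and 6.73% lower. ACO1, the iron-sulfur enzyme aconitase, was the lower one, averaging −0.031 in E4 and 0.68 in E3, with a difference of −0.72 (adjusted p = 0.000212) that was under the fold minimum with loess within print-tip blocks (−0.47) and in the deposited values (−0.57).

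Most Zap1 targets that the study kept from earlier work rose in both experiments. Of the 31 kept targets read on all arrays, all 31 rose in E3 and 26 in E4, and the median ratio was 1.16 in E4 and 1.27 in E3. The study kept genes in this set because they rose with Zap1TC on these arrays, so the E3 count is not independent evidence. The same choice tends to lower E4 minus E3. The counts and median of the difference, and the targets found lower in E4, are therefore not independent evidence either. The earlier targets that the study did not keep were set aside because Zap1TC did not clearly raise them. Of these, 9 were read on all arrays, and 1 rose in E4 and 1 in E3. Of the 31 kept targets, the difference was called higher in E4 for 3 and lower for 8, against 10.3% and 6.73% of all genes. The 8 include ZAP1, whose value is only a bound. The median difference of the 31 was −0.013. With dim genes left out, 3 of 26 kept targets were higher and 4 lower. ZRT1, the high-affinity zinc transporter, had ratios of 6.44 and 6.84 on the E4 arrays and 5.49 and 5.24 on the E3 arrays, with a difference of 1.28 (95% CI 0.98 to 1.59, adjusted p = 8.95e-05). ZPS1, a surface protein, and FET4, a low-affinity metal transporter, were the others higher in E4, at 1.03 and 0.65. The FET4 difference was not called with no background correction (0.51), with plain subtraction (0.46), in the deposited values (0.48), without Zap1TC replicate 1 (0.52) or without LZM3 replicate 2 (0.52). ZRT3, which releases zinc from the vacuole, averaged 2.49 in E4 and 2.45 in E3, a difference of 0.034 with a 95% CI of −0.17 to 0.24. ADH4, an alcohol dehydrogenase induced in low zinc, averaged 4.05 in E4 and 3.78 in E3 and was under the fold minimum. The balance of the list depended on scale: with the arrays scaled to the same spread 11 were higher and 6 lower, the median difference was 0.46, and ZRT1, ZPS1 and ADH4 differed by 2.56, 2.48 and 1.10. In the deposited values 2 were higher and 10 lower, with a median of −0.16.

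Among the targets lower in E4 than in E3, URA10, a minor orotate phosphoribosyltransferase, had ratios of 0.84 and 0.69 on the E4 arrays and 2.49 and 2.37 on the E3 arrays, with a difference of −1.67 (95% CI −1.88 to −1.46, adjusted p = 2.95e-06). IZH2, a membrane protein of zinc homeostasis, had 0.82 and 0.46 on the E4 arrays and 1.84 and 1.82 on the E3 arrays, with a difference of −1.19 (95% CI −1.46 to −0.93, adjusted p = 5.78e-05). ADE17, of purine synthesis, rose in E3 and not in E4, averaging 0.14 in E4 and 1.10 in E3, with a difference of −0.96 (adjusted p = 0.000117). PET20, a mitochondrial protein of the study's second set of targets, had 0.44 and 0.65 on the E4 arrays and 2.30 and 2.08 on the E3 arrays, with a difference of −1.64 (95% CI −1.89 to −1.4, adjusted p = 6.83e-06). ZAP1 itself had the lowest difference of all, but its E3 signal includes the plasmid allele and its E4 Cy3 signal was not well above background, so no value is given. Of the other sets that the study chose on these arrays, 3 of 14 in the second and 2 of 15 in the severe-limitation set were higher in E4, and 5 and 3 were lower.

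Genes that use zinc did not move as one. Of 35 genes for zinc-dependent enzymes 11 were higher in E4 and 5 lower, against 10.3% and 6.73% of all genes. The median ratio of the 35 was 0.027 in E4 and −0.30 in E3. The alcohol dehydrogenases ADH1 and ADH3, abundant zinc enzymes, fell in both experiments. ADH1, the main fermentative enzyme, had ratios of −1.70 and −1.98 on the E4 arrays and −1.33 and −1.15 on the E3 arrays, with a difference of −0.61 (95% CI −0.86 to −0.35, adjusted p = 0.0019). The ADH1 difference was under the fold minimum with no background correction (−0.54), with loess within print-tip blocks (−0.53), in the deposited values (−0.49), without Zap1TC replicate 2 (−0.52) and without LZM3 replicate 2 (−0.47). ADH3, the mitochondrial form, fell further in E3, averaging −0.94 in E4 and −1.54 in E3, with a difference of 0.59 (adjusted p = 0.000609). It was just past the fold minimum and was not called with median centring (0.56), with print-tip loess (0.43), with arrays of the same spread (0.33) or without Zap1TC replicate 1 (0.51). BDH1, butanediol dehydrogenase, and HEM2, of heme synthesis, fell in E3 and stayed within 1.2-fold in E4, with differences of 1.39 (adjusted p = 8.95e-05) and 0.85 (adjusted p = 9.01e-05). XYL2, a xylitol dehydrogenase, rose in E3 alone, with ratios of 0.23 and 0.11 on the E4 arrays and 2.0 and 2.01 on the E3 arrays and a difference of −1.84 (95% CI −2.03 to −1.64, adjusted p = 1.72e-06). STE24, the zinc protease that matures a-factor, averaged −0.59 in E4 and 0.54 in E3, with a difference of −1.13 (adjusted p = 1.70e-05).

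Mating genes differed in both directions. Of 12 listed mating genes read on all arrays, 2 were higher in E4, 4 were lower and 6 were not called. Over all genes, 10.3% were higher and 6.73% lower. MF(ALPHA)2, the minor gene for alpha-factor, fell in both experiments, with ratios of −3.22 and −3.33 on the E4 arrays and −1.61 and −1.51 on the E3 arrays and a difference of −1.72 (95% CI −1.92 to −1.52, adjusted p = 2.46e-06). MF(ALPHA)1, the major gene, averaged 0.20 in E4 and −1.25 in E3, so that it fell in E3 only, with a difference of 1.45 (95% CI 1.17 to 1.73, adjusted p = 2.71e-05) that was 2.31 with loess within print-tip blocks. SAG1, the alpha-agglutinin, averaged −1.81 in E4 and −0.31 in E3 and SST2, which damps pheromone signalling, −1.5 in E4 and −0.33 in E3, and both were lower in E4. Of 18 thiamine genes 5 were lower in E4 and 1 was higher, against 6.73% and 10.3% of all genes. The higher one was THI7, the thiamine permease, with a difference of 0.86 (adjusted p = 0.000115). The lower ones included SNZ1, of vitamin B6 synthesis, with a difference of −1.01 (adjusted p = 5.62e-05), and the near-identical THI11 and THI12. With dim genes left out, 2 thiamine genes were lower.

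Of the remaining genes with extreme differences, INA1 fell in E3 and not in E4, with ratios of 0.085 and 0.21 on the E4 arrays and −2.76 and −1.63 on the E3 arrays and a difference of 2.34 (95% CI 1.71 to 2.96, adjusted p = 0.000156). Its 2 E3 arrays were farther apart than those of any other gene given here by array, and with an intensity trend and a robust prior the adjusted p was 0.0698. RKM5, a methyltransferase of ribosomal protein Rpl1 and the neighbour of TIS11, had ratios of 0.43 and 0.34 on the E4 arrays and 1.98 and 2.06 on the E3 arrays, with a difference of −1.63 (95% CI −1.83 to −1.44, adjusted p = 2.46e-06). RGI1, a protein of energy metabolism under respiratory growth, had −0.012 and −0.084 on the E4 arrays and 1.75 and 1.35 on the E3 arrays, with a difference of −1.6 (95% CI −1.88 to −1.32, adjusted p = 1.76e-05). The telomeric YHR218W, which resembles a helicase, had −0.45 and −0.29 on the E4 arrays and 1.11 and 1.30 on the E3 arrays, with a difference of −1.58 (95% CI −1.80 to −1.35, adjusted p = 6.17e-06).

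**Figure D5:**
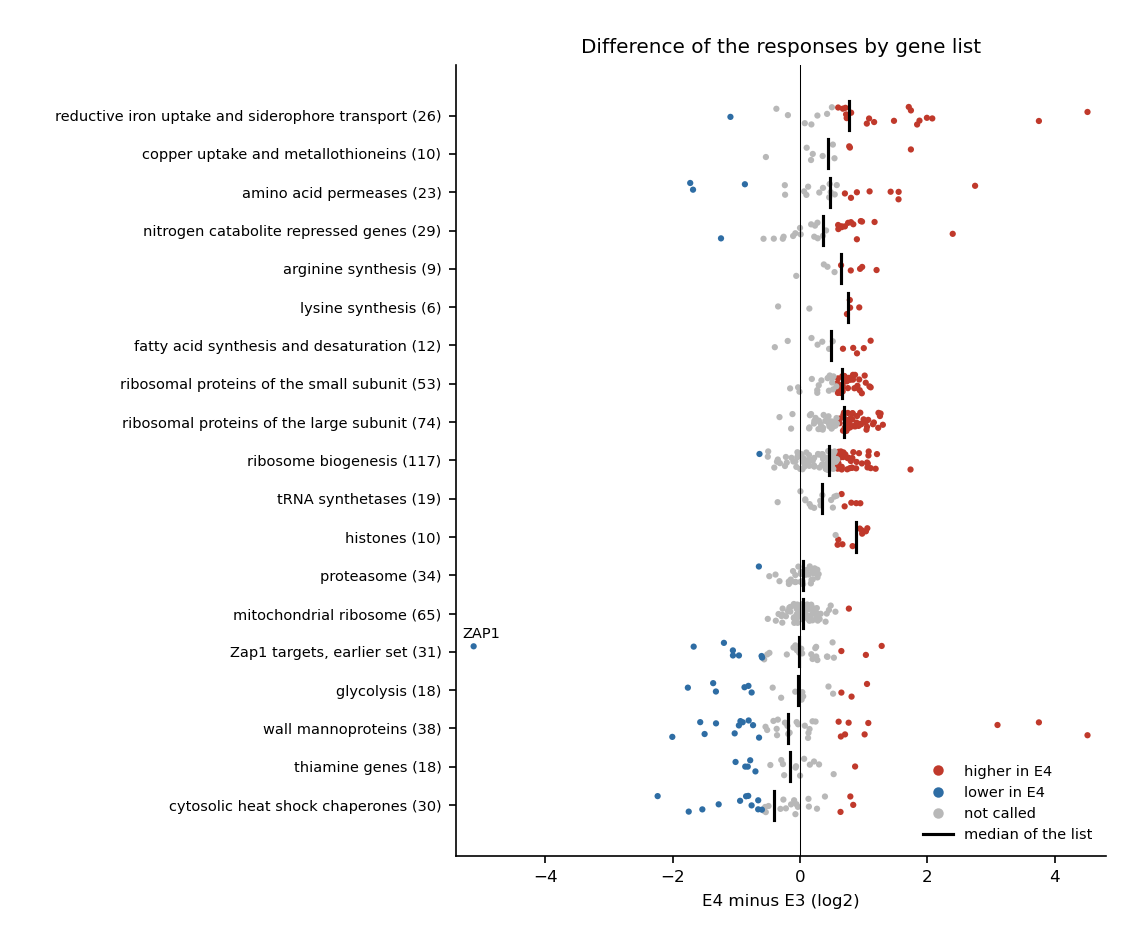
Each point is a gene's E4 minus E3 difference (log2) in 1 of 19 gene lists, with the number of genes read on all arrays in parentheses. Red points were called higher in E4, blue points lower and grey points neither, and bars are list medians, from 0.88 for the histones to −0.40 for the chaperones. The ZAP1 point is only a bound.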

How the data were processed

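cDNA from 1.2 µg of mRNA of each culture was labelled and hybridized to spotted whole-genome arrays, 4 in all. Per the file headers, the deposited scanner tables hold the mean and local background intensity of each spot in each channel, for spots flagged good in both. The authors also deposited log2 Cy5/Cy3 values, normalized by LOWESS within each slide, with a median of −0.0182 to −0.0211 per array. These were used as an alternative, and the authors' scaled Cy3 and ratio columns were not used. The scanner software is not given in the sources used here.

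From the intensities, background was corrected by normexp with an offset of 50, loess (span 0.3) was applied to the ratios of each array, and a gene's spots were then averaged as log2 ratios. Loess centres each array near 0, so changes are relative to the bulk of the genes. A linear model with 1 coefficient per experiment was fitted in limma 3.58.1 (R 4.3.3) to the 4992 genes read on all 4 arrays, with moderated two-sided tests of E4, E3 and E4 minus E3 and Benjamini-Hochberg adjustment over all of them. The fit had 2 residual and 7.29 prior degrees of freedom. A call needed an adjusted p under 0.05 and at least 1.5-fold. For a signal to be well above background, its mean minus its local background had to be over 2.6 times the SD of the channel's local backgrounds. The fit was tested on simulated data.

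Array by array, 10036 to 11303 spots were read, 85.5% to 97.7% of them well above background in Cy5 and 95.3% to 99.9% in Cy3. Only 2 arrays per experiment limit the precision. Symbols were taken from RefSeq for 4711 genes by locus tag, and otherwise from the arrays. The genes named are the 15 highest and 15 lowest called differences above background, the genes that changed in opposite directions, and, within gene lists, members in order of their difference or named by the study. The gene lists, from textbook roles and from the study's target sets, and the choice of comparison were made with earlier results of these data known. No list was tested as a set. A planned count of promoter motifs was not run. Alternatives were no background correction, plain subtraction, loess within print-tip blocks, median centring, arrays scaled to the same spread, dim genes left out, the deposited log2 values, each array left out, an intensity trend and robust prior, a replicate block, and a 2-fold minimum.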

Additional observations from a re-analysis of the deposited data

How the results depend on the processing

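The main counts were 513 genes higher and 336 lower in E4, 7 genes up in E4 and down in E3, 3 down in E4 and up in E3, 81 up and 31 down in E4 only, and 108 up and 146 down in E3 only. With plain background subtraction they were 951, 636, 30, 32, 143, 107, 139 and 313 in the same order. A 2-fold minimum left 125, 90, 1, 0, 18, 3, 24 and 20. With no background correction, 1 gene was down in E4 and up in E3 and 17 were down in E4 only. In the deposited values these counts were 1 and 14, and 51 were up in E4 only. With the arrays scaled to the same spread, 95 were down in E3 only. The cause was not tested. Leaving out 1 array at a time gave 479 to 558 higher, 321 to 382 lower, 7 to 10 and 2 to 4 opposite, 71 to 88 and 27 to 39 in E4 only, and 108 to 144 and 129 to 169 in E3 only. The arrays share replicate numbers across experiments, but same-numbered arrays did not deviate together (r = −0.0738 across genes, 2 pairs). With the replicate number as a block, 514 genes were higher and 337 lower, the other counts were 7, 3, 81, 31, 109 and 147, and all 849 calls were kept.

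Of the 849 calls, the deposited values kept 655 and turned the sign of 2, print-tip loess kept 717 and turned 1, and plain subtraction kept 812 of the 844 it could test and turned 6. No other setting turned a sign, and each kept at least 703, or all 763 of those tested with dim genes left out. The median over all genes stayed between 0.019 and 0.0761. Of the named genes, the called differences of TDH2 and TDH3 turned to 0.0761 and 0.0029 in the deposited values. The other sign changes were in differences that had not been called: HSP104 (0.0024 with no background correction, 0.0183 in the deposited values, −0.1784 to 0.0340 with each array left out), ZRT3 (−0.1021 with no background correction, −0.3341 with print-tip loess, −0.0257 in the deposited values, −0.0244 to 0.0919 with each array left out), CUP1-1 (−0.2843 with print-tip loess), RPS15 (0.1310 in the deposited values, −0.1621 to 0.1013 with each array left out) and RPP1B (−0.2607 to 0.0238 with each array left out). CTR3 and HHF1, under the fold minimum above, passed it in some settings (CTR3 −1.35 with plain subtraction and −0.62 without LZM3 replicate 1, HHF1 0.95 with print-tip loess and 0.59 with median centring). Dim spots limit the E4 arrays most, since fewer of their Cy5 signals were well above background.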

Other observations

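Genes near chromosome ends stood out after their values were seen. Among the 10 outermost protein-coding genes at each end of each chromosome, in RefSeq order, 195 were read on all 4 arrays. Of these, 39 were lower in E4 than in E3 (20%) and 15 were higher (7.69%), whereas 272 of the other 4507 placed genes were lower (6.04%) and 480 higher (10.7%). In E4 17 of the outermost genes rose (8.72%) and in E3 51 did (26.2%), against 4.7% in E4 and 5.46% in E3 of the other genes. The median difference was −0.1241 for the outermost genes and 0.0276 for the others. FLO5, YHR213W and YHR218W, described above, lie toward the right end of a chromosome by their locus names. Many subtelomeric genes belong to families of similar sequence, so they are not separate measurements, and no test was made.

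Genes that were not read on every array could not enter the difference. Of these, 137 were read on both E4 arrays, 11 of them on neither E3 array, and 788 were read on both E3 arrays, 432 of them on neither E4 array. Among the 788, 73 were at least 1.5-fold up and 4 at least 1.5-fold down on both E3 arrays, and among the 137, 1 was up and 1 down on both E4 arrays. The share that meets this rule among the genes read on all 4 arrays is not given, so these counts have no base beside them. SPG1, needed for survival in stationary phase at high temperature, had log2 ratios of 2.69 and 2.22 on the E3 arrays, and SPG4, of the same kind, had 1.37 and 1.08. PHM7, which the study lists among likely Zap1 targets, had 1.37 and 1.23, and FMP45, a membrane protein of the eisosome, had 1.32 and 1.25. MET2, the homoserine acetyltransferase of methionine synthesis, went down in E3, with −1.89 and −1.69. None of these 5 was read on both E4 arrays.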
